A study of Homo sapiens with 8 samples.

Results

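The genes described here are 39 human symbols of glucose breakdown and of the response to low oxygen, measured in myeloma cells with and without a hairpin against SIRT6. They fall into 7 roles: the enzymes of glycolysis (15 symbols), lactate dehydrogenase (2), glucose and lactate transport (4), control of glycolytic flux (4), the hypoxia-inducible factors (HIF) and their hydroxylases (4), other HIF targets (8), and TXNIP with its relative ARRDC4 (2). A member was taken as the row of the array table whose platform annotation carries exactly that symbol and, where a symbol had several rows, the row with the highest mean over all arrays. By this rule 21 of the 39 symbols had a row, out of 14884 named genes in all, and all 21 passed the filter on low levels. No value is given for the other 18, which had no named row. These were PFKL, PFKM, PFKP, ALDOA, ALDOC, ENO1, ENO2 and PKM of glycolysis, SLC2A1, SLC2A3, SLC16A1 and SLC16A3 of transport, PDK1, PDK3, PFKFB3 and PFKFB4 of flux control, HIF1A, and the HIF target CA9. Both transport and flux control, with 0 of 4 symbols each, are therefore not described, and any statement on glycolysis rests on 7 of its 15 symbols.

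MM1.S and NCI-H929 are established human multiple myeloma cell lines, grown from malignant plasma cells. Cells of either line had a scramble short hairpin (shSCR) or a short hairpin against SIRT6 (shSIRT6), and each of the 4 combinations was hybridised in duplicate, 8 arrays in all. The control arrays therefore also carry a hairpin construct. All cells were grown in RPMI-1640 medium with serum and glutamine, and no oxygen or glucose treatment is named. The labels describe a single shSIRT6 condition and do not say whether it holds more than 1 hairpin sequence, or whether the duplicates came from separate cultures, so a p-value here reflects only how far the duplicate arrays lie apart, which can be a technical spread.

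Glycolysis splits glucose into pyruvate in the cytosol, and lactate dehydrogenase turns pyruvate into lactate so that the pathway can keep running. HIF1A and EPAS1 are the oxygen-regulated subunits of the HIF transcription factors. The EGLN prolyl hydroxylases mark these subunits for destruction when oxygen is present, and when they escape this they pair with ARNT and raise the transcription of glycolytic enzymes, glucose carriers and other target genes. SIRT6 is an NAD-dependent deacetylase of chromatin that is known, in other cells, to hold down HIF1A-driven glycolytic genes, and this is the question that the comparison of shSIRT6 with scramble puts to these genes. TXNIP is an alpha-arrestin that binds thioredoxin and promotes removal of glucose carriers from the cell surface. Its transcription is raised by the glucose-sensing factors MLXIP (MondoA) and MLXIPL (ChREBP), which bind DNA as partners of MLX, and ARRDC4 is a relative of TXNIP under the same kind of control.

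The values are log2 levels after robust multi-array averaging (RMA), and the text gives differences on that scale with the standard error (SE) of limma. The targeted gene was measured first. SIRT6 stood at 6.09 and 5.88 in the MM1.S scramble arrays and at 5.60 and 5.78 in the MM1.S shSIRT6 arrays. It stood at 6.53 and 6.97 in the NCI-H929 scramble arrays and at 6.25 and 6.31 in the shSIRT6 arrays. The hairpin arrays lay below the scramble arrays in both lines, yet the difference did not pass limma's test with Benjamini-Hochberg adjustment in MM1.S (−0.295 ± 0.161 SE, adjusted p = 0.355), in NCI-H929 (−0.47 ± 0.161, adjusted p = 0.276) or averaged over both (−0.382 ± 0.114, adjusted p = 0.135). The knockdown that the labels state was therefore measured as a direction without a call. Median levels of the 8 arrays ran from 3.88 to 3.97, and Pearson correlations over all clusters were 0.989 to 0.992 within a group, 0.985 to 0.989 between the constructs of a line and 0.942 to 0.95 between the lines. Of the plasma cell markers looked for, 7 of 10 had a row and all 7 were above the filter level, with arrays from 4.81 to 11.74. The 4 T and NK cell markers with a row, of 8, ran from 3.77 to 5.47 and all passed the filter, the 6 myeloid markers, of 7, from 2.31 to 5.28 with 5 passing, and the 2 stromal markers, of 6, from 1.99 to 2.73 with 0 passing. None of the 5 erythroid markers had a row. Of 4 epithelial markers 3 had a row and passed, with arrays from 3.15 to 8.14, KRT18 being the one near the top. SDC1 (CD138), the surface marker of plasma cells, rose in MM1.S with the hairpin by 0.52 (adjusted p = 0.0461). It was the 1 called of the 7 plasma cell markers, beside 1.33% of all genes, and its call was not checked under the alternatives. Of the 7 markers 4 were below 0 (median −0.015), with IRF4 at −0.325 (adjusted p = 0.121) and CD38 at −0.275 (adjusted p = 0.256). The part of these markers in the results was not tested. In RNA from whole cultures, fewer cells of a kind and less RNA per cell cannot be told apart.

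**Figure D1:**
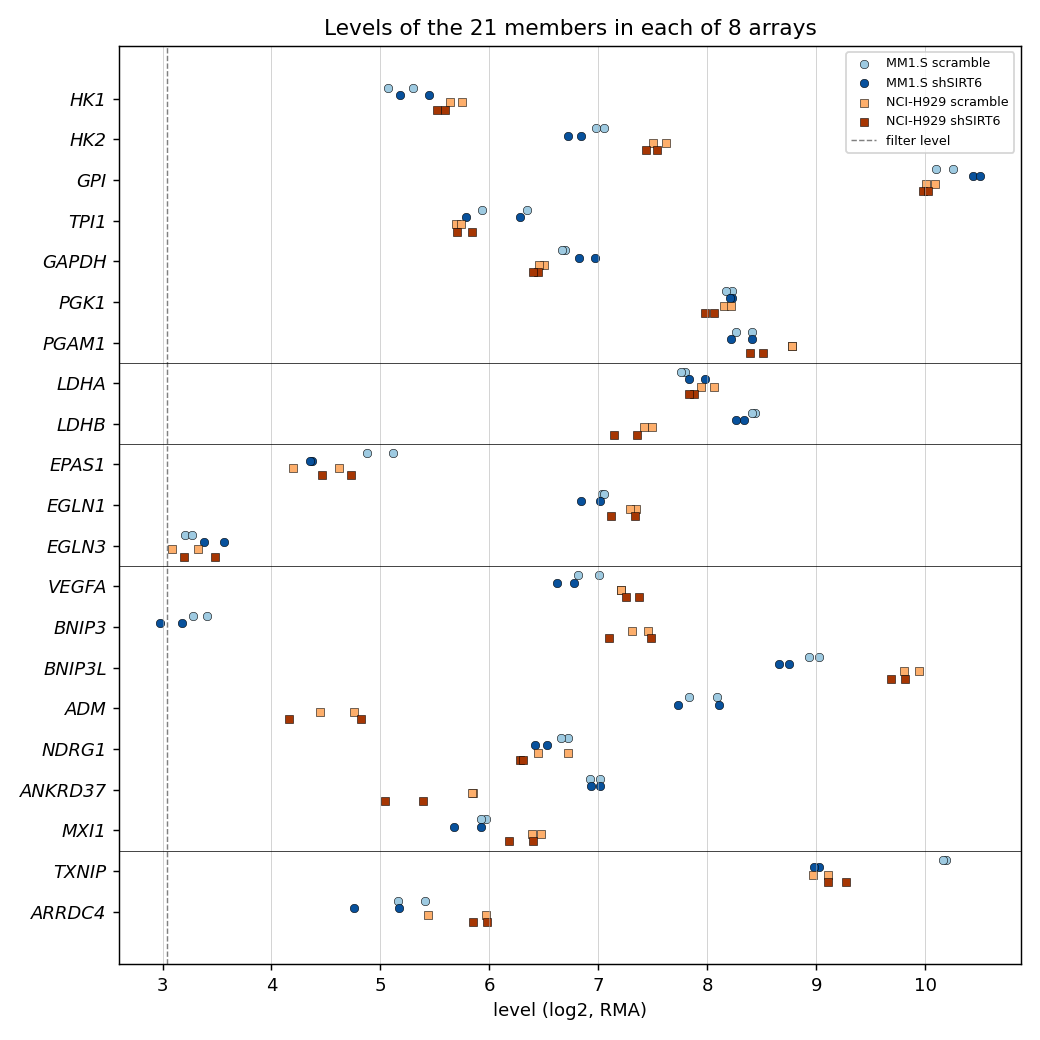
Log2 RMA level (x axis) of the 21 members with a named row (y axis) in each of the 8 arrays, coloured by line and construct, with the filter level of 3.045 as a dashed line. BNIP3 and ADM are the members whose arrays separate furthest by line, and BNIP3 in MM1.S and EGLN3 in all arrays lie close to the filter level.

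The hairpin against SIRT6 changed 1 of the 21 members in MM1.S. TXNIP fell. No member of glycolysis, lactate dehydrogenase, the HIF factors or the other HIF targets passed the test of the main fit in either direction. GPI and BNIP3L passed under 1 alternative, given below. Over all 12734 genes tested 1.33% were called in this comparison, and 1.12% were called lower, so 1 member of 21 is read against that share. The members' median difference was −0.11, with 14 of 21 below 0, and the median of all genes was 0.005, with 49.1% below 0. At an unadjusted p below 0.05 there were 4 members (19%), 1 higher and 3 lower, a share close to the 19.6% of all genes. The shSIRT6 arrays did not overlap the scramble arrays in 13 of 21 members (61.9%), 9 of them lower and 4 higher. The share of all genes was 50.7% in either direction. It was not split by direction, so nothing is read from the split of the members.

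In NCI-H929 the shSIRT6 condition gave 0 called members of 21, beside a background of 0.0236% of all genes, which is 3 genes. The unadjusted p was below 0.05 in 3 members (14.3%), all lower with the hairpin, beside 14.5% of all genes in either direction and 9.75% lower. The members' median was −0.095, with 15 of 21 below 0, and the median of all genes was −0.045, with 58.3% below 0. Arrays did not overlap in 9 members (42.9%), 8 lower and 1 higher, beside 46.6% of all genes in either direction. Here too the share of all genes was not split by direction, and nothing is read from the split.

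**Figure D2:**
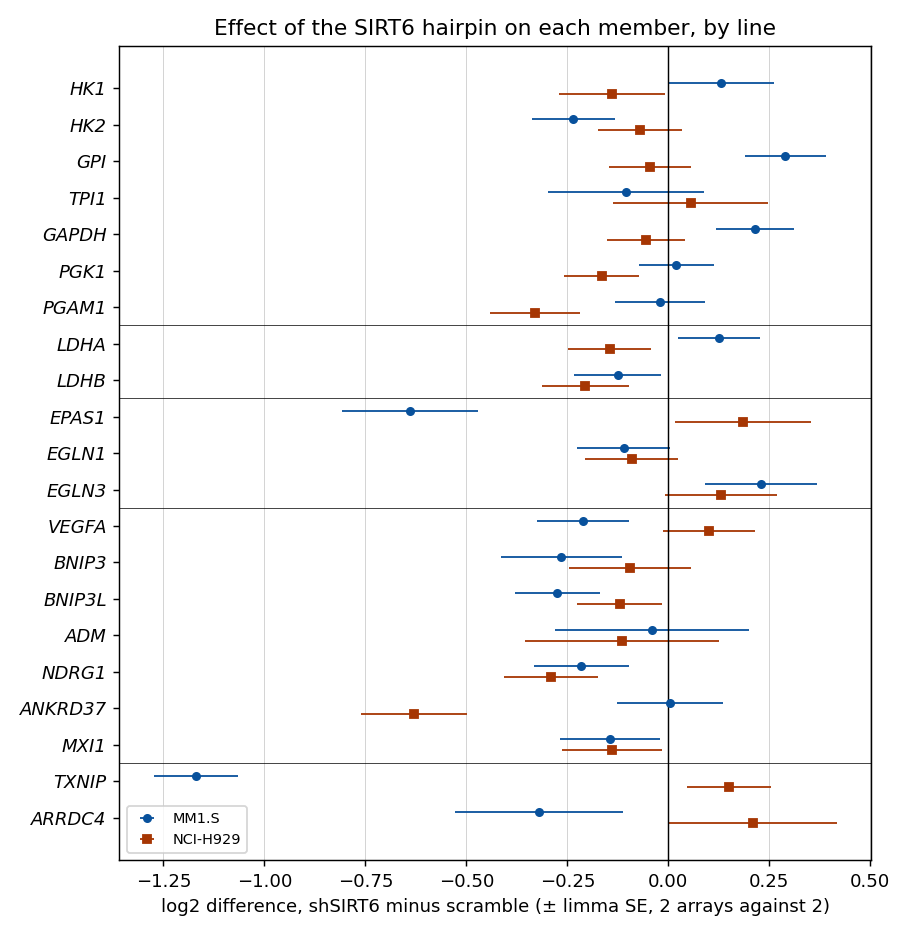
Log2 difference between shSIRT6 and scramble (x axis, with limma's SE, 2 arrays against 2) for each of the 21 members (y axis) in MM1.S and in NCI-H929. TXNIP in MM1.S, at −1.17, lies apart from the other members, whose differences run from −0.64 to 0.29 in both lines.

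None of the glycolytic enzymes with a row was called with the hairpin in the main fit. Their differences ran from −0.235 to 0.29 in MM1.S and from −0.33 to 0.055 in NCI-H929. In MM1.S their median difference was 0.02, with 4 of 7 above 0, and in NCI-H929 it was −0.07, with 1 of 7 above 0. GPI, which turns glucose 6-phosphate into fructose 6-phosphate, stood at 10.10 and 10.26 in the MM1.S scramble arrays and at 10.44 and 10.50 in the shSIRT6 arrays. Both hairpin arrays were above both controls, but the difference of 0.29 ± 0.101 did not pass after adjustment (unadjusted p = 0.0222, adjusted p = 0.181). With the mean-variance trend in eBayes GPI was called (adjusted p = 0.012), in a fit that called 953 of all genes. In NCI-H929, GPI read 10.01 and 10.09 with scramble and 9.98 and 10.03 with the hairpin, and the groups overlapped (−0.045, adjusted p = 0.861). GAPDH, the enzyme of the NADH-forming step, differed by 0.215 ± 0.0969 in MM1.S (adjusted p = 0.277) and by −0.055 in NCI-H929 (adjusted p = 0.819).

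PGAM1, the mutase that moves the phosphate of 3-phosphoglycerate, gave the lowest p of the glycolytic group in NCI-H929. It stood at 8.78 in both scramble arrays and at 8.39 and 8.51 in the shSIRT6 arrays, so the groups did not overlap. The difference of −0.33 ± 0.112 did not pass (unadjusted p = 0.0199, adjusted p = 0.274). In MM1.S the arrays overlapped, at 8.26 and 8.41 with scramble and 8.41 and 8.22 with the hairpin. The row that carries the PGAM1 symbol is ordered in the array among rows from elsewhere in the genome. RefSeq places PGAM1 on chromosome 10, and 0 of the 6 neighbouring named rows lie there, chromosome 12 being their commonest. It was not settled whether this row reads PGAM1 or a related copy elsewhere.

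The hexokinases trap glucose in the cell by phosphorylating it. HK2, the isoenzyme that is a HIF target, differed by −0.235 ± 0.103 in MM1.S (adjusted p = 0.265) and by −0.07 in NCI-H929 (adjusted p = 0.782). HK1, the broadly expressed isoenzyme, differed by 0.13 ± 0.131 in MM1.S (adjusted p = 0.619) and by −0.14 in NCI-H929 (adjusted p = 0.65). Neither isoenzyme passed the test in either line. The differences of TPI1, which interconverts the 3-carbon sugar phosphates, were −0.105 ± 0.193 and 0.055, in the same order of lines. For PGK1, the first ATP-forming step, they were 0.02 ± 0.0928 and −0.165, and neither gene passed in either line (lowest adjusted p = 0.449).

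Both lactate dehydrogenase subunits were measured and neither was called. LDHA, the subunit that favours lactate formation, stood at 7.80 and 7.76 in the MM1.S scramble arrays and at 7.83 and 7.98 in the shSIRT6 arrays, a difference of 0.125 ± 0.102 (adjusted p = 0.531). In NCI-H929 it stood at 8.06 and 7.94 with scramble and at 7.88 and 7.83 with the hairpin (−0.145, adjusted p = 0.54). LDHA thus lay without overlap above the controls in MM1.S and below them in NCI-H929, and neither direction passed the test. LDHB, the subunit that favours the use of lactate, read 8.44 and 8.41 against 8.34 and 8.26 in MM1.S (−0.125 ± 0.108, adjusted p = 0.556). In NCI-H929 it read 7.49 and 7.42 with scramble against 7.14 and 7.36 with the hairpin (−0.205, adjusted p = 0.42).

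Among the HIF factors and hydroxylases, 3 of 4 symbols were measured and none was called with the hairpin. EPAS1 (HIF-2 alpha) stood at 5.12 and 4.88 in the MM1.S scramble arrays and at 4.37 and 4.35 in the shSIRT6 arrays. Both hairpin arrays were lower and close to each other, and the difference of −0.64 ± 0.168 missed the threshold (unadjusted p = 0.00594, adjusted p = 0.11). In NCI-H929, EPAS1 stood at 4.62 and 4.20 with scramble and at 4.73 and 4.46 with the hairpin, so the groups overlapped (0.185, adjusted p = 0.638). The difference between the lines in the effect on EPAS1 was 0.825 ± 0.238 (adjusted p = 0.226). EGLN1, the main oxygen sensor of the pathway, differed by −0.11 ± 0.115 in MM1.S and −0.09 in NCI-H929. EGLN3, a hydroxylase that is itself induced by HIF, differed by 0.23 ± 0.138 and 0.13, with all arrays between 3.09 and 3.56 and thus near the filter level.

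The other HIF targets had 7 of 8 symbols with a row, and none was called with the hairpin. Their median difference was −0.21 in MM1.S and −0.12 in NCI-H929, with 6 of 7 below 0 in each line. BNIP3L, a receptor that sends mitochondria to autophagy, gave the lowest p of the group in MM1.S. The scramble arrays read 9.03 and 8.93 and the hairpin arrays 8.66 and 8.75, a difference of −0.275 ± 0.105 (unadjusted p = 0.0329, adjusted p = 0.213). With the mean-variance trend in eBayes BNIP3L was called (adjusted p = 0.0323). In NCI-H929 it read 9.94 and 9.81 against 9.82 and 9.69, with overlap (−0.12, adjusted p = 0.627). ANKRD37, a small ankyrin-repeat protein, gave the lowest p of all 21 members in NCI-H929. It stood at 5.85 and 5.84 with scramble and at 5.39 and 5.04 with the hairpin, a difference of −0.63 ± 0.131 (unadjusted p = 0.00161, adjusted p = 0.186). In MM1.S it read 6.92 and 7.02 against 7.02 and 6.93, with no separation (0.005 ± 0.131, adjusted p = 0.986), and the difference between the lines in its response was −0.635 ± 0.185 (adjusted p = 0.229).

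NDRG1, a cytoplasmic protein induced by hypoxia and other stresses, was lower without overlap in both lines. In MM1.S it stood at 6.72 and 6.66 with scramble and 6.53 and 6.42 with the hairpin (−0.215 ± 0.117, adjusted p = 0.352). In NCI-H929 it stood at 6.45 and 6.72 with scramble and 6.28 and 6.31 with the hairpin (−0.29 ± 0.117, adjusted p = 0.323). Neither passed the test. VEGFA, the angiogenic growth factor, differed by −0.21 ± 0.114 in MM1.S (adjusted p = 0.352) and by 0.1 in NCI-H929 (adjusted p = 0.713). The mitophagy receptor BNIP3 differed by −0.265 ± 0.15 and −0.095, ADM (the vasodilator peptide adrenomedullin) by −0.04 ± 0.24 and −0.115, and MXI1, a partner of MAX that opposes MYC, by −0.145 ± 0.124 and −0.14, in MM1.S and NCI-H929 in that order. None of these passed the test in either line (lowest adjusted p = 0.37).

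Averaged over both lines, 0 of 21 members were called by limma, beside 0.0864% of all genes, and 4 (19%) had an unadjusted p below 0.05, all lower with the hairpin, beside 21.3% of all genes in either direction and 13.6% lower. In this average 18 of 21 members were below 0, with a median of −0.1, beside a median of −0.023 and 54.9% below 0 over all genes. The 4 members were TXNIP (−0.51 ± 0.0736, adjusted p = 0.0665), ANKRD37 (−0.312 ± 0.0923, adjusted p = 0.133), NDRG1 (−0.252 ± 0.0825, adjusted p = 0.153) and BNIP3L (−0.197, adjusted p = 0.195). All 7 of the other HIF targets with a row were below 0, with a median of −0.18. This average uses the same arrays as the comparison within each line and is no further evidence.

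TXNIP fell in MM1.S and not in NCI-H929. It read 10.19 and 10.16 in the MM1.S scramble arrays and 9.03 and 8.98 in the MM1.S shSIRT6 arrays. The NCI-H929 arrays read 9.11 and 8.97 for scramble and 9.27 and 9.11 for the hairpin. The hairpin arrays of MM1.S were thus at about the level that NCI-H929 had with either construct, and in NCI-H929 the constructs overlapped. The fall in MM1.S was −1.17 ± 0.104, or 2.25-fold (limma, adjusted p = 0.00806), against a difference of 0.15 ± 0.104 in NCI-H929 (adjusted p = 0.535). The effect itself differed between the lines by 1.32 ± 0.147 (adjusted p = 0.0323), and TXNIP was 1 of 21 members called for this difference, beside 0.204% of all genes. With any 1 of the 4 MM1.S arrays left out the fall was −1.195 to −1.145 and no longer passed (adjusted p = 0.0946 without scramble replicate 1, 0.0576 without scramble replicate 2, 0.0686 without shSIRT6 replicate 1 and 0.0772 without shSIRT6 replicate 2). The difference between the lines also lost its call with any 1 of the 8 arrays left out.

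A further row of the array carries the TXNIP symbol and the same transcript accession. It read 7.52 in both MM1.S scramble arrays and 5.79 and 5.88 in the MM1.S shSIRT6 arrays. In NCI-H929 it read 6.36 and 6.13 with scramble and 6.36 and 6.34 with the hairpin. Tested with each cluster as a feature of its own, this row fell by 1.685 in MM1.S (SE 0.117, adjusted p = 0.0105), was 0.105 apart in NCI-H929 (adjusted p = 0.738) and differed between the lines by 1.79 ± 0.166 (adjusted p = 0.0209). Both rows read RNA of the same extracts and are no replicates of each other. RefSeq places TXNIP on chromosome 1, and 0 of the 6 neighbouring named rows of the further row lie there, Y being their commonest chromosome. The place of the further row in the genome was not settled.

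ARRDC4 did not pass the test. It stood at 5.16 and 5.41 in the MM1.S scramble arrays and at 4.76 and 5.17 in the shSIRT6 arrays, and the groups overlapped narrowly (−0.32 ± 0.208, adjusted p = 0.43). In NCI-H929 it stood at 5.97 and 5.44 with scramble and at 5.85 and 5.98 with the hairpin, also with overlap (0.21 ± 0.208, adjusted p = 0.669). The difference between the lines was 0.53 ± 0.294 (adjusted p = 0.464). Its duplicates lay further apart than those of TXNIP in 3 of the 4 groups, and its SE was larger.

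**Figure D3:**
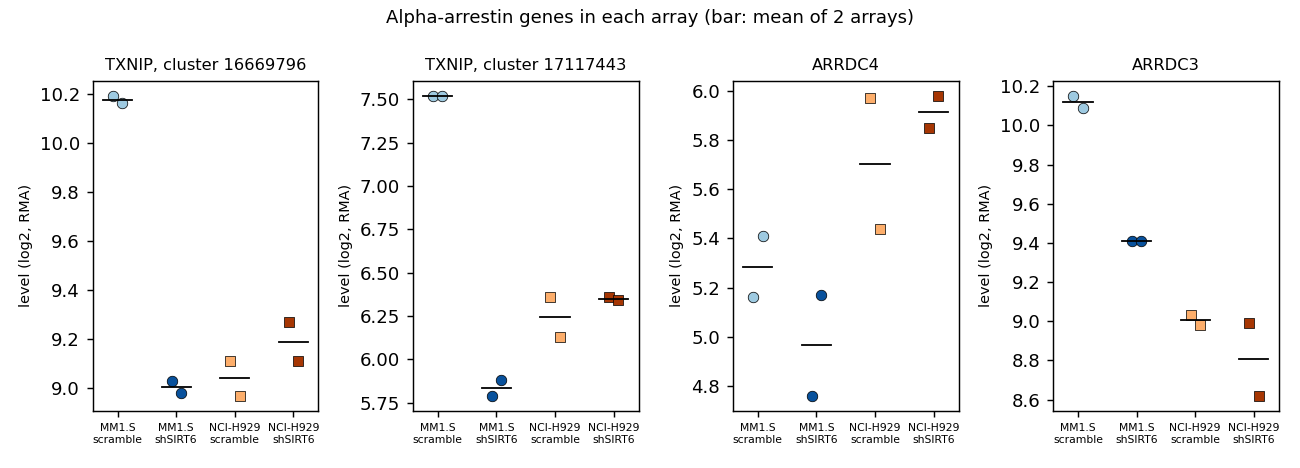
Log2 RMA level (y axis) of alpha-arrestin genes in each array by line and construct (x axis), with bars at the mean of the 2 arrays of a group and an axis range of its own, not from 0, in each panel. TXNIP drops from 10.19 and 10.16 to 9.03 and 8.98 in MM1.S and stays between 8.97 and 9.27 in NCI-H929, and ARRDC3 drops from 10.15 and 10.09 to 9.41 in both MM1.S hairpin arrays.

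The promoters of TXNIP and ARRDC4 are shown because both genes are classical targets of the MLX factors, which bind carbohydrate response elements made of a pair of E-box-like sequences. The windows are the 250 bases before the RefSeq transcription start in GRCh38.p14, written 5′ to 3′ on the strand of the gene. TXNIP has 2 windows, for 2 starts. The one shown is chr1:145996580-145996829 on the minus strand, and the capitals mark a pair of CACGNG boxes with 5 bases between them. For ARRDC4 it is chr15:97960453-97960702 on the plus strand, and the capitals mark the E-box CACGTG.
TXNIP: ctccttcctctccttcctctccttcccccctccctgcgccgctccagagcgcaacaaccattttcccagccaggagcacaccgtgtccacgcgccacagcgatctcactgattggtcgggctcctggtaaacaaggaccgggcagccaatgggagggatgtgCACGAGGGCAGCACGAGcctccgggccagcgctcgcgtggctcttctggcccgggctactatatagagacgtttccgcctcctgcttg
ARRDC4: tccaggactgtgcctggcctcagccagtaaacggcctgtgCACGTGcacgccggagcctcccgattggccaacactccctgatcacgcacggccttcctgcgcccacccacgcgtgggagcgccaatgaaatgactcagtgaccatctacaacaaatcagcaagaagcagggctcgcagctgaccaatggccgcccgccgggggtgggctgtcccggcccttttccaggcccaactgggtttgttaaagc
The pair in TXNIP runs from 88 to 72 bases before the start, and the window of its other start, chr1:145995745-145995994, holds none. The search for this pair was written from the known TXNIP element, so its presence there is no finding, and of all 35116 windows of this length 0.0456% (16) hold it on either strand. The E-box of ARRDC4 lies 210 to 205 bases before the start, and 6.34% of all windows hold 1 on either strand. The pair was matched in 1 of the 18 members that have a window.

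The other genes of these pathways were read from 7 further lists with 72 tested genes. Of these, 1 was called with the hairpin in MM1.S (1.39%, beside 1.33% of all genes) and 0 in NCI-H929. GALM, the mutarotase that interconverts the forms of glucose before phosphorylation, stood at 8.72 in both MM1.S scramble arrays and at 7.94 and 8.05 in the shSIRT6 arrays. It fell by 0.725 on the log2 scale (SE 0.108), or 1.65-fold (adjusted p = 0.0336). In NCI-H929 it read 9.75 and 9.71 against 9.58 and 9.36, lower without overlap but not called (−0.26, adjusted p = 0.338), and the difference between the lines was 0.465 (adjusted p = 0.262). The call on GALM was lost in 10 of 19 alternatives, with values from −0.78 to −0.648. These include leaving out any 1 MM1.S array (adjusted p = 0.206 and 0.109 without scramble replicates 1 and 2, 0.144 and 0.126 without shSIRT6 replicates 1 and 2) or either NCI-H929 scramble array (0.075 each). GALM was 1 of 8 tested genes of the list of other glycolytic isoenzymes, which had 21 symbols.

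The glucose-sensing MLX network had all 17 symbols tested and 0 called with the hairpin in either line. An unadjusted p below 0.05 was found for 2 of its genes in MM1.S (11.8%, beside 19.6% of all genes), 1 in each direction, and 3 in NCI-H929 (17.6%, beside 14.5%), all lower. Its lowest p was that of ARRDC3, an alpha-arrestin related to TXNIP. ARRDC3 stood at 10.15 and 10.09 in the MM1.S scramble arrays and at 9.41 in both shSIRT6 arrays, a difference of −0.71 ± 0.131 that missed the threshold (adjusted p = 0.055). It passed in 4 of 19 alternatives, among them the stricter filter (adjusted p = 0.0385) and eBayes with trend (adjusted p = 0.000485). The others were the fits without either NCI-H929 shSIRT6 array. In NCI-H929 it read 9.03 and 8.98 against 8.99 and 8.62, with overlap (−0.2, adjusted p = 0.515). The other alpha-arrestins of the list were not called either, and in MM1.S ARRDC2 differed by 0.435 (adjusted p = 0.257), ARRDC1 by 0.16 and ARRDC5 by 0.065. The network's median was 0.04 in MM1.S and −0.14 in NCI-H929.

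Each of the remaining lists had 0 called genes with the hairpin in either line. The pentose phosphate pathway, which draws glucose 6-phosphate off to NADPH and ribose, had 8 of 9 symbols tested. Its TKT (transketolase) differed by 0.41 ± 0.105 in MM1.S (adjusted p = 0.104) and by −0.11 in NCI-H929. Of the pyruvate dehydrogenase list 8 of 12 were tested, and PC (pyruvate carboxylase) differed by 0.44 in MM1.S (adjusted p = 0.207). Of the HIF regulators 9 of 18 were tested. SIAH1, a ubiquitin ligase that acts on the hydroxylases, differed by −0.355 in MM1.S (adjusted p = 0.134) and 0.435 in NCI-H929 (adjusted p = 0.203), and the difference between the lines, 0.79 ± 0.146, was not called either (adjusted p = 0.109). Of a wider set of HIF targets 20 of 35 were tested. INSIG2, which retains sterol-sensing proteins in the endoplasmic reticulum, differed by −0.34 in MM1.S (adjusted p = 0.138) and −0.395 in NCI-H929 (adjusted p = 0.21). The median of this set was −0.12 in MM1.S and −0.11 in NCI-H929. Of the other sugar and monocarboxylate carriers and their chaperones 2 of 19 were tested, and BSG (basigin) differed by 0.15 in MM1.S (adjusted p = 0.453).

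**Figure D4:**
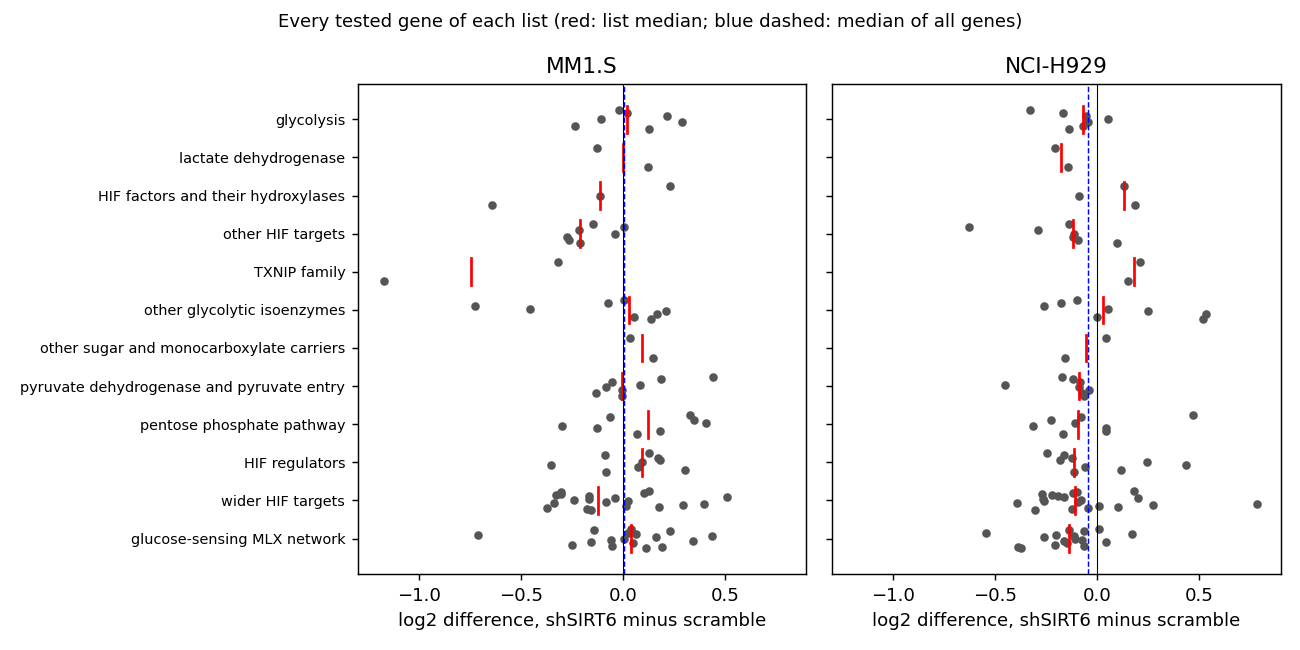
Log2 difference between shSIRT6 and scramble (x axis) of every tested gene of each list (y axis), in MM1.S and in NCI-H929, with the median of the list in red and the median of all genes as a blue dashed line. The all-gene medians are 0.005 and −0.045, and the lowest points in MM1.S are TXNIP at −1.17, GALM at −0.725 and ARRDC3 at −0.71.

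The control arrays of the 2 lines differed far more than the constructs did. With the scramble hairpin 11 of 21 members were called between NCI-H929 and MM1.S, beside 38.3% of all genes. Of these, 6 were higher in NCI-H929 (BNIP3, BNIP3L, HK2, HK1, MXI1 and PGAM1), beside 20.0% of all genes, and 5 were lower (ADM, TXNIP, ANKRD37, LDHB and EPAS1), beside 18.3%. The median over the 21 members was −0.015, beside 0.03 over all genes. Without MM1.S scramble replicate 1 the count of 11 was 7. Nothing particular to these genes is read from the count, and the sizes of the single differences follow.

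BNIP3 and ADM separated the lines most among the members, in opposite directions. BNIP3 stood at 3.41 and 3.28 in the MM1.S scramble arrays and at 7.46 and 7.31 in the NCI-H929 scramble arrays, a difference of 4.04 ± 0.15, or 16.4-fold (adjusted p = 2.23e-06). Its MM1.S level is near the filter level of 3.045 and could not be set against a background signal, so the fold is only as good as that low value. Its hairpin arrays repeated the split, at 3.18 and 2.98 in MM1.S and 7.48 and 7.10 in NCI-H929. ADM stood at 7.83 and 8.09 in MM1.S and at 4.76 and 4.45 in NCI-H929 with scramble, a difference of −3.355 ± 0.24, or 10.2-fold (adjusted p = 4.8e-05). With the hairpin it stood at 7.73 and 8.11 and at 4.82 and 4.16. Both genes are targets of HIF, so the HIF targets did not run in 1 direction between the lines. With scramble 3 of 7 were called higher in NCI-H929, beside 20.0% of all genes, and 2 lower, beside 18.3%. Nothing particular to HIF targets is read from these counts. VEGFA (0.3, adjusted p = 0.0756) and NDRG1 (−0.105, adjusted p = 0.537) were not called. Over both constructs VEGFA was called higher (0.455, adjusted p = 0.00223).

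ANKRD37 was lower in the NCI-H929 controls (−1.125 ± 0.131, or 2.18-fold, adjusted p = 0.000434), from the array values given above. BNIP3L was higher by 0.895 ± 0.105, or 1.86-fold (adjusted p = 0.000463). MXI1 read 5.97 and 5.92 in MM1.S and 6.47 and 6.39 in NCI-H929 with scramble (5.68 and 5.92, and 6.40 and 6.18, with the hairpin), a difference of 0.485 ± 0.124 (adjusted p = 0.0169) that was no longer called with any 1 of the 4 scramble arrays left out (adjusted p = 0.0582 and 0.0756 without MM1.S replicates 1 and 2, 0.0883 and 0.0542 without NCI-H929 replicates 1 and 2). A further row with the MXI1 symbol read 4.99 and 4.90 against 5.02 and 5.43, and was not called (0.28, adjusted p = 0.243). EPAS1 was lower in NCI-H929 (−0.59 ± 0.168, adjusted p = 0.0267), but its scramble arrays there, 4.62 and 4.20, were the least alike. Without MM1.S scramble replicate 1 the EPAS1 difference was −0.47, and without NCI-H929 scramble replicate 2 it was −0.38, and neither was called (adjusted p = 0.144 and 0.154). Over both constructs it was −0.178 (adjusted p = 0.268). EGLN1 (0.28, adjusted p = 0.0972) and EGLN3 (−0.03) were not called with scramble, and EGLN1 passed under 2 of 19 alternatives.

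Of the glycolytic enzymes, 3 of 7 were called between the lines with scramble, all higher in NCI-H929. This stands beside 38.3% of all genes called and 20.0% called higher. Nothing particular to glycolysis is read from this count. HK2 read 7.05 and 6.98 in MM1.S and 7.62 and 7.50 in NCI-H929 with scramble (6.84 and 6.72, and 7.54 and 7.44, with the hairpin), a difference of 0.545 ± 0.103, or 1.46-fold (adjusted p = 0.00428). HK1 read 5.07 and 5.30 against 5.75 and 5.64 with scramble (5.45 and 5.18 against 5.52 and 5.59 with the hairpin), a difference of 0.51 ± 0.131, or 1.42-fold (adjusted p = 0.0174). It was not called without MM1.S scramble replicate 1 (0.395, adjusted p = 0.107) or NCI-H929 scramble replicate 1 (0.455, adjusted p = 0.0943). The row for PGAM1 differed by 0.445 ± 0.112 (adjusted p = 0.0158) and was not called without MM1.S scramble replicate 1 (adjusted p = 0.0949) or NCI-H929 scramble replicate 1 (0.0694) or 2 (0.0707). GPI, TPI1, GAPDH and PGK1 differed by −0.13, −0.425, −0.2 and −0.015 and were not called with scramble. Over both constructs GPI (−0.298, adjusted p = 0.00989) and GAPDH (−0.335, adjusted p = 0.00461) were called lower in NCI-H929. HK2 kept its call as higher under all 19 alternatives. LDHB was lower in NCI-H929 (−0.97 ± 0.108, or 1.96-fold, adjusted p = 0.00036), and LDHA was not called (0.22, adjusted p = 0.134). The hexokinases and LDHB thus separated the lines without overlap, in opposite directions.

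TXNIP was lower in the NCI-H929 controls (−1.135 ± 0.104, or 2.2-fold, adjusted p = 0.00015). This holds for the scramble arrays only in that size: averaged over both constructs the difference was −0.475, since the hairpin arrays of MM1.S lay near those of NCI-H929. The call on TXNIP between the lines was kept under all 19 alternatives. ARRDC4 ran the other way and was not called with scramble (0.42, adjusted p = 0.159). Without NCI-H929 scramble replicate 2 its difference was 0.685. Over both constructs it was also 0.685, and ARRDC4 was called there (adjusted p = 0.00581).

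**Figure D5:**
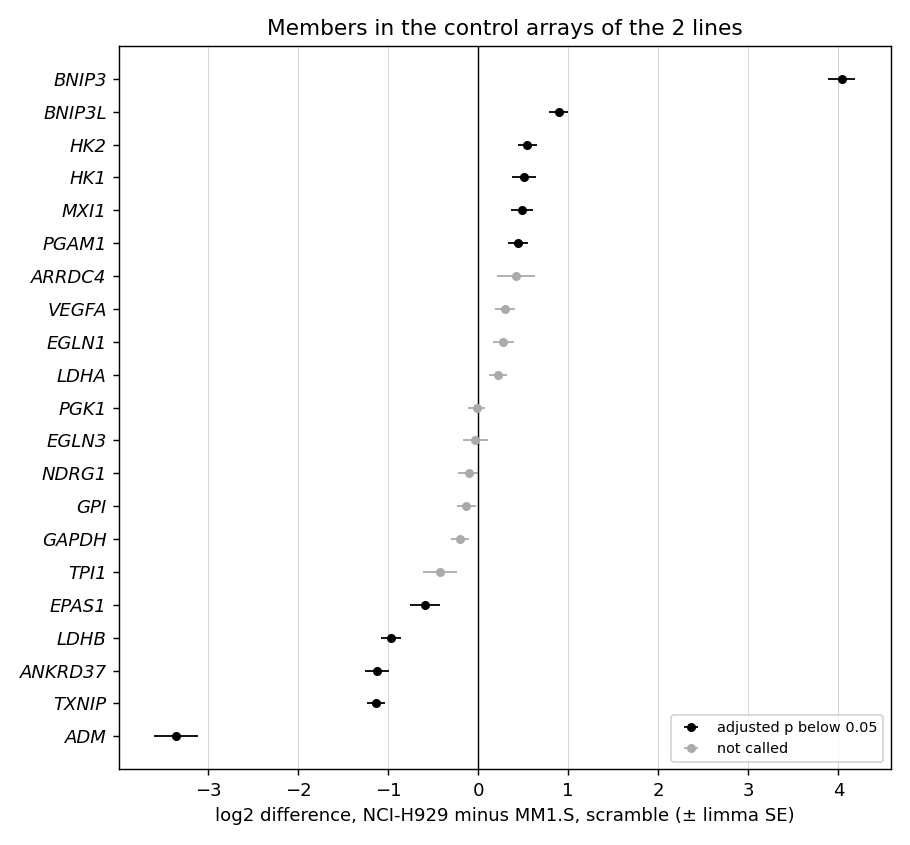
Log2 difference between the scramble arrays of NCI-H929 and MM1.S (x axis, with limma's SE) for the 21 members, ordered by difference (y axis) and coloured by whether the adjusted p passed. BNIP3 at 4.04 and ADM at −3.355 lie at the ends, and 11 of the 21 members passed.

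The promoters of BNIP3, ADM and ANKRD37 are shown because, of the 7 HIF targets among the members, they differ most between the lines, in both directions. HIF binds hypoxia response elements, whose core is ACGTG or GCGTG, and the capitals mark these cores on either strand, which on the other strand read CACGT and CACGC. In BNIP3 and ANKRD37 a core lies within the E-box CACGTG and the whole box is in capitals. The windows are chr10:131981924-131982173 on the minus strand for BNIP3, chr11:10304823-10305072 on the plus strand for ADM, and chr4:185396591-185396840 on the plus strand for ANKRD37, all in GRCh38.p14.
BNIP3: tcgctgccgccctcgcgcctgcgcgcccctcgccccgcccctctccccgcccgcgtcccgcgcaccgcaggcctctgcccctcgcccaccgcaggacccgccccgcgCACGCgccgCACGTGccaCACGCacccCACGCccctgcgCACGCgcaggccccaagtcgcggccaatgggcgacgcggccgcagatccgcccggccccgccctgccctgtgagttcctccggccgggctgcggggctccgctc
ADM: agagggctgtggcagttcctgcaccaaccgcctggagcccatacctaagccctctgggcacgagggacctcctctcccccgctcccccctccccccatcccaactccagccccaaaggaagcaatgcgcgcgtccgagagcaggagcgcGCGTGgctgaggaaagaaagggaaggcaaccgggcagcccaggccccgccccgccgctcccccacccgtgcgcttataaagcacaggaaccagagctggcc
ANKRD37: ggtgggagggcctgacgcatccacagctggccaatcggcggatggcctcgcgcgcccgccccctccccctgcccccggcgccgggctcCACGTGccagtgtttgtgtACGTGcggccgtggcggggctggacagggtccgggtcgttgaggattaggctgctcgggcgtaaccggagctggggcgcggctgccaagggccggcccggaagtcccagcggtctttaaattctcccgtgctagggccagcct
The window of BNIP3 holds 6 matches, counting both strands, 2 of them in the E-box 134 to 129 bases before the start. That of ADM holds 1, at 101 to 97 bases before the start. That of ANKRD37 holds 3, of which 2 lie in the E-box at 162 to 157 and 1 at 143 to 139. So BNIP3, high in NCI-H929, and ADM and ANKRD37, high in MM1.S, all carry such a core. Of all windows 18.5% hold ACGTG, 32.2% hold GCGTG and 43.2% hold either, and of the 30 windows of 18 members 19 hold either. A match describes these letters and is not a measured binding site. No window is given for BNIP3L, NDRG1 and VEGFA.

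In the 7 further lists 31 of 72 tested genes (43.1%) were called between the lines with the scramble construct, read against the same 38.3%. The HIF regulators had 3 of 9 called. ARNT, the constant partner of the HIF subunits, was higher in NCI-H929 by 1.01 ± 0.0948, or 2.01-fold (adjusted p = 0.000162), USP20, a deubiquitinase of HIF1A, by 0.635 (adjusted p = 0.00241), and SIAH1 was lower (−0.61, adjusted p = 0.00258). Of the wider HIF targets 8 of 20 were called, 3 higher and 5 lower. STC2, a secreted glycoprotein of calcium and stress responses, was higher by 3.845 ± 0.301, or 14.4-fold (adjusted p = 7.14e-05), SPAG4 was higher by 1.88 (adjusted p = 1.34e-05), and RORA, a nuclear receptor, was lower (−1.06, adjusted p = 0.000952).

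In the MLX network 8 of 17 were called, and this and the following counts are read against the same 38.3% of all genes. KLF10, a zinc-finger repressor, was higher in NCI-H929 by 1.045 (adjusted p = 0.000189), MYC, which shares E-boxes with this network, by 0.815 (adjusted p = 0.00043), and ARRDC3 was lower (−1.115, adjusted p = 0.000464). The alpha-arrestins did not run together: ARRDC3 and TXNIP were higher in the MM1.S controls, ARRDC2 was higher in NCI-H929 (1.22, adjusted p = 0.0016), and ARRDC1 (0.03) and ARRDC5 (−0.04) were not called. Among the isoenzymes GALM (1.01), PGM2 (0.47) and TIGAR, a phosphatase that slows glycolysis (0.7), were called higher in NCI-H929, and the count of 3 was 1 without MM1.S scramble replicate 2 or without NCI-H929 scramble replicate 1. The pyruvate dehydrogenase list had 6 of 8 called, 4 higher in NCI-H929 and 2 lower. Its 3 lowest p were those of genes higher in NCI-H929: PC at 2.005 ± 0.165, or 4.01-fold (adjusted p = 8.96e-05), the phosphatase PDP1 at 1.95 and the acetyltransferase subunit DLAT at 0.685. The genes called lower were DLD (−0.725, adjusted p = 0.00239) and MPC1 (−0.625, adjusted p = 0.00325). The pentose phosphate pathway had 2 of 8 called, H6PD (1.015) and TKT (0.37), and its epimerase RPE was not (−0.815, adjusted p = 0.0615). That count was 1 without either MM1.S scramble array or NCI-H929 scramble replicate 2, and 3 without NCI-H929 scramble replicate 1, and also without either NCI-H929 shSIRT6 array. Of the carriers, EMB (embigin) was lower (−0.455) and BSG was not called (−0.19, adjusted p = 0.194).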

How the data were processed

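RNA of 8 samples was read on GeneChip Human Gene 2.0 ST arrays, 1 colour per array. The deposited table has a log2 value per transcript cluster and array. RMA, the Transcriptome Analysis Console and genome build hg19 are named for it, per the submitters' processing notes. No version of either tool is stated there. Without scanner intensities, which were not analysed here, no row could be set against its background. All columns of the table were used (0 others). Of 48226 rows, 16098 carry 1 gene symbol in the platform annotation. The row with the highest mean was kept for 779 genes with more than 1. The 12734 genes tested had a mean level over 3.045, which is percentile 30 over the clusters.

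Group means of the 4 groups were estimated with limma 3.58.1 (lmFit, eBayes; R 4.3.3) on all 8 arrays. There were 4 residual and 3.43 prior degrees of freedom, and the prior SD was 0.128. Compared were shSIRT6 with scramble inside each line, the average and the difference of those effects (MM1.S subtracted from NCI-H929), and the scramble arrays of the lines. Calls needed an adjusted p (Benjamini-Hochberg, over every gene tested) below 0.05, and adjusted p-values come from this limma model or, where an alternative is named beside them, from the limma fit of that alternative. An exact permutation test of 2 arrays against 2 cannot give a two-sided p below 0.333, so none was used, and the number of arrays limits the precision. The pipeline was tested on simulated data. Members called in any contrast, and the member of each role with the lowest p in an shSIRT6 contrast, are given in every array; of the further lists, the called genes or the one with the lowest p are named, and up to 3 by lowest p between the lines. The members and lists were chosen with earlier results of these data known. Alternatives were other filters, cluster rules, normalizations (quantile, cyclic loess), eBayes with trend or robust settings, array weights, a replicate block, each line alone, both constructs together and leaving out each array. Testing each cluster separately was added after seeing the data. All 16098 platform gene IDs matched RefSeq. Promoter sequences are from RefSeq, GRCh38.p14, and 18 of the 21 members matched; no array coordinates are printed.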

Additional observations from a re-analysis of the deposited data

Results flagged for a closer look

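The difference between the lines in the effect of the hairpin on TXNIP is given for a closer look because the difference itself passed limma's test: the effect in NCI-H929 minus that in MM1.S was 1.32 (adjusted p = 0.0323), from 0.15 in NCI-H929 and −1.17 in MM1.S. Groups of 2 arrays are too small to look for arrays that stand apart. The cause of the difference was not tested.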

How the results depend on the processing

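Of the 13 member values called, 0 reversed under any alternative and 6 lost their call under at least 1. Of the 92 uncalled member values, 10 were called and 36 changed sign under at least 1 alternative. With the mean-variance trend in eBayes the called members were 3 in MM1.S, 1 in NCI-H929 (ANKRD37, adjusted p = 0.0397) and 2 in the average of the lines. The 3 in MM1.S were TXNIP, GPI (0.29, adjusted p = 0.012) and BNIP3L (−0.275, adjusted p = 0.0323), in a fit that called 953 of all genes. The average had 1 with the stricter filter and 1 with the mean of a gene's clusters. Fitting MM1.S alone left 0 called. Leaving out 1 array gave 0 to 1 called members in MM1.S, 0 for the difference between the lines under every left-out array, and 7 to 11 between the lines with scramble, the 7 without MM1.S scramble replicate 1. Both constructs together gave 15 between the lines. The cause of these changes was not tested, and the smaller fits also hold fewer arrays.

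With the replicate number as a block 0 members were called in MM1.S and 0 for the difference between the lines (TXNIP, adjusted p = 0.0751 and 0.195). Same-numbered arrays of a line deviated together with a correlation of 0.077 in MM1.S and −0.001 in NCI-H929. These values show no pairing by number but cannot exclude a shared culture or processing step, on which the labels are silent.

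TXNIP in MM1.S ran from −1.427 to −1.13 over 19 alternatives and lost its call in 6, and its difference between the lines ran from 1.24 to 1.555 over 18 and lost it in 9. Over all genes the count called in MM1.S, 169, ran from 0 to 953, that in NCI-H929, 3, from 0 to 194, that of the average, 11, from 0 to 911, that of the difference, 26, from 0 to 430, and that between the lines, 4875, from 3713 to 6104. With no signal over background known, levels near 3.045 are the least certain.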
